A study of Mus musculus with 7 samples.

Results

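The genes described here are 9 spliced noncoding RNA genes of the mouse whose introns carry small nucleolar RNAs (snoRNAs): Gas5, Snhg1, Snhg3, Snhg5, Snhg6, Snhg8, Snhg12, Snhg15, and Snhg20. They were taken by symbol from a count table of 55367 genes, and all 9 had a row and passed the minimum on counts. They were measured in CD8+ T cells, sorted by FACS from spleens of mice of the strain Foxp3 YFP/cre and treated in culture for 48 hours with small extracellular vesicles (sEVs) at 100 ug/ml. The 3 LME-sEV libraries came from cells given leukemia EVs, which the study purified from spleens of leukemic Eμ-TCL1 mice, in which an enhancer active in B cells drives TCL1. The 4 HCME-sEV libraries came from cells given control EVs, purified from spleens of healthy mice. The study's methods describe CD8+ T cells kept on wells coated with anti-CD3, with CD28 antibody and IL2 in the medium, so both groups were stimulated. They set the amount of vesicles by what the respective spleen holds, whereas the labels give 1 amount for all samples. The groups follow the sample labels, and the study's text gives the group sizes the other way round in 1 place. There was no group without vesicles, so each difference is between 2 kinds of vesicles. The labels give no age, and nothing in them says which libraries shared an animal, so the p-values measure the spread between these libraries, which may be technical.

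A snoRNA guides the chemical modification or the processing of ribosomal RNA or of other small RNAs, and in vertebrates most snoRNAs are cut from the introns of a host transcript after splicing. C/D box snoRNAs guide methylation of the ribose and H/ACA box snoRNAs guide the change of uridine to pseudouridine. Many host genes begin with a 5′ terminal oligopyrimidine (TOP) tract, as ribosomal protein genes do. The spliced exons of several noncoding hosts are removed by nonsense-mediated decay (NMD) when they are translated, so the level of the spliced RNA reflects both its synthesis and its decay. Gas5 takes its name from growth arrest, in which its spliced RNA accumulates.

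Libraries held between 3689831 and 5030522 counts, each count a captured 3′ end with its copies collapsed by molecular identifier, and mitochondrial genes took 6.44% to 7.67% of them. A count does not depend on the length of the transcript. Each of the 8 T cell markers was counted in all libraries, with Cd3d between 454 and 622 CPM (counts relative to the library total, normalized by TMM). Cd4 was at 0 to 3 counts per library. Of the B cell markers, Cd79b was at 7 to 22 counts, Ms4a1 at 1 to 7, and Cd79a at 0 to 2. The summed level of 14 markers of other cells was 37.2 to 62.9 CPM with HCME-sEVs and 49.3 to 81.3 CPM with LME-sEVs. Of these, 3 of the 8 tested ones were higher with LME-sEVs, Prg2, Mcpt8, and Hba-a1, of eosinophils, basophils, and red cells. The 8 had 5 values above 0 and 3 below. Cpa3, of basophils and mast cells (3.84 to 17.7 CPM), and Hbb-bs, of red cells (15.3 to 28.4 CPM), did not pass the test. Of the T cell markers, 2 were higher, Cd3e and Cd3g. The part of these cells in the results below was not tested, and in bulk samples fewer cells of a type and less RNA per cell cannot be told apart. HCME-sEV replicate 1 stood furthest from the other libraries of its group, and log2 fold changes that rest on it are given without it.

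The sequences around the start of the host genes show how the start sites of these genes differ. RefSeq (GRCm38.p6) gave a window for 8 of the 9 genes, with 2 for Gas5. The stretch from 40 bases before the start to 20 bases from the start onward is printed 5′ to 3′, with capitals for each TATA in the 40 bases before the start, a motif that reads the same on both strands, and for a C followed by at least 4 pyrimidines on the transcribed strand that begins within 5 bases of the start. These motifs and windows were chosen after the sequences were seen.
Gas5, upstream start, chr1:161034561-161034620, plus strand: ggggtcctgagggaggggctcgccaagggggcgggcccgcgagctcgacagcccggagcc
Gas5, downstream start, chr1:161035126-161035185, plus strand: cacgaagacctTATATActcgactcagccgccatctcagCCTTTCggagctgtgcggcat
Snhg1, chr19:8723447-8723506, plus strand: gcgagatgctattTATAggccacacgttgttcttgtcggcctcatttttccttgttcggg
Snhg3, chr4:132353667-132353726, minus strand: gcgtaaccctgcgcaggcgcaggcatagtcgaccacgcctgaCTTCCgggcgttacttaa
Snhg5, chr9:88522878-88522937, minus strand: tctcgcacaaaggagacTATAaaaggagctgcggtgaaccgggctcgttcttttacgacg
Snhg8, chr3:123508317-123508376, minus strand: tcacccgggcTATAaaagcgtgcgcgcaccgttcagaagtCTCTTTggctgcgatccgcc
Snhg12, chr4:132308638-132308697, plus strand: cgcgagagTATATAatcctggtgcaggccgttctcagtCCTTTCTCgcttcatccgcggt
Snhg15, chr11:6528741-6528800, minus strand: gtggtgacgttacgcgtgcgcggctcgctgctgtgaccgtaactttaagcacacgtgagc
Snhg20, chr11:117076743-117076802, plus strand: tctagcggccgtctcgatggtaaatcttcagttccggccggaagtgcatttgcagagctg
TATA was present in 5 of the 9 windows, those of Gas5 (downstream start), Snhg1, Snhg5, Snhg8, and Snhg12, and in 7.63% of the 32851 promoters of the table. The pyrimidine tract was present in 4 of the 9, those of Gas5 (downstream start), Snhg3, Snhg8, and Snhg12, and in 17.1% of all promoters. Both stood in 3 of the 9 and in 1.19% of all promoters. The windows of Snhg15, Snhg20, and the upstream start of Gas5 held neither. The start used in these cells was not measured, since the reads come from 3′ ends.

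The 9 host genes did not share a direction of change. Against HCME-sEVs, 2 of the 9 were lower with LME-sEVs at an FDR under 0.05 (edgeR's quasi-likelihood test, Benjamini-Hochberg over 12623 tested genes), Snhg15 and Snhg5, none was higher, and none changed beyond a log2 fold change of 1. At an unadjusted p under 0.05, 4 were lower and 0 higher, and DESeq2 and limma-voom each called 2 lower and 0 higher. Of all tested genes, 658 were lower (5.21%) and 473 were higher (3.75%). At an unadjusted p under 0.05, 1548 of all tested genes were lower and 1316 higher. DESeq2 called 562 lower and 328 higher, and limma-voom called 629 and 462. The counts of the lists below at these settings stand beside the same totals. The median log2 fold change of the 9 was -0.18, beside 0.01 over all tested genes, with 5 values below and 4 above 0. The libraries of the 2 conditions did not overlap for 2 of the 9, the same Snhg5 and Snhg15, and for 20.3% of all tested genes. The list is a choice of genes made with earlier results of these data known, and its counts are a description.

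**Figure D1:**
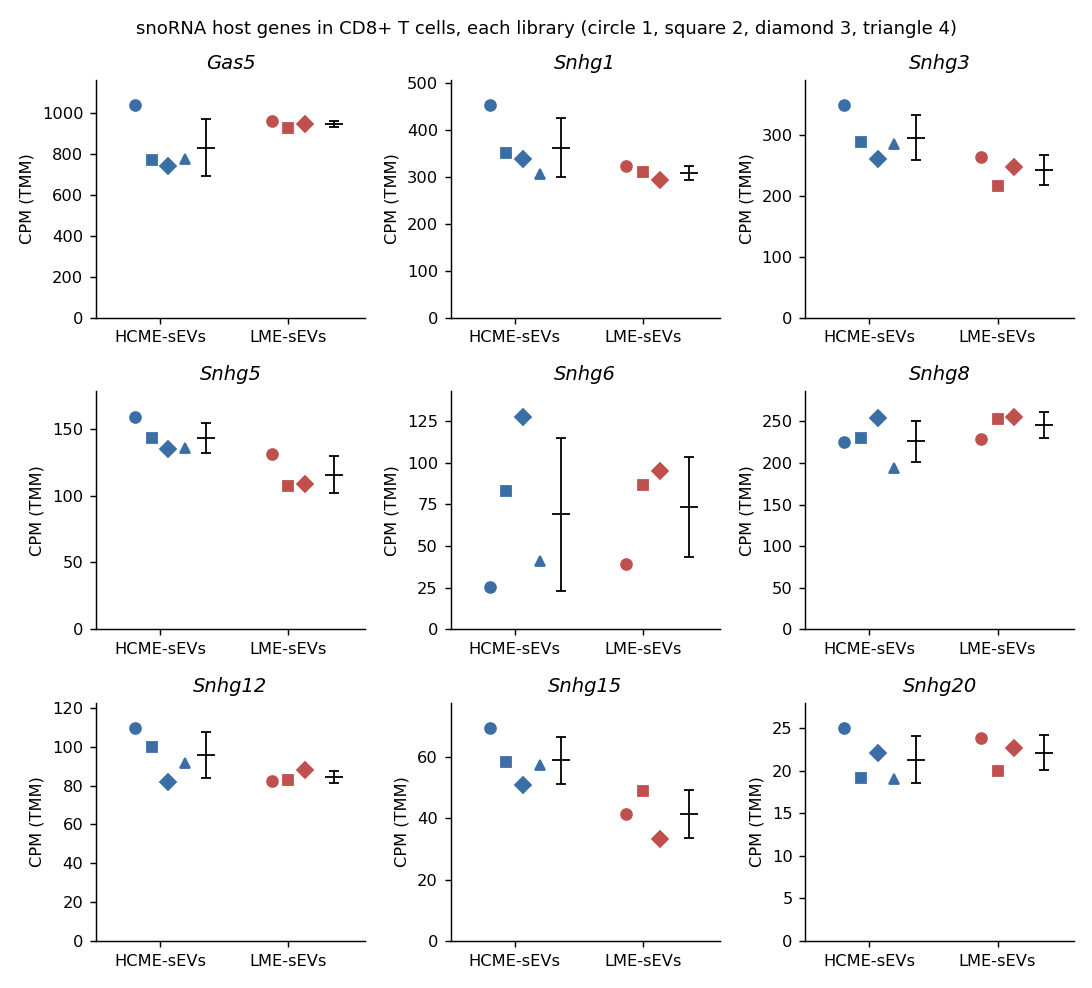
CPM (TMM) of each host gene in each library, with HCME-sEV libraries in blue and LME-sEV libraries in red, marker shapes for the replicate number, and black bars for the mean ± SD (n = 4 and n = 3). For Snhg15 and Snhg5 the red points all lie below the blue ones, and HCME-sEV replicate 1 is the highest point for 7 of the 9 genes.

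Snhg15, on chromosome 11 from 6525591 to 6528760 (GRCm38, minus strand, on which the other hosts lie too unless stated), carries the H/ACA snoRNA Snora9 and changed most of the 9. Its level was 69.4, 58.3, 51.0, and 57.3 CPM in HCME-sEV replicates 1 to 4, and 41.6, 49.1, and 33.4 CPM in LME-sEV replicates 1 to 3. All LME-sEV libraries lay below all HCME-sEV libraries, and the nearest, LME-sEV replicate 2 and HCME-sEV replicate 3, were 49.1 and 51.0 CPM. The mean was 59.0 ± 7.63 CPM with HCME-sEVs (SD, n = 4) and 41.3 ± 7.81 CPM with LME-sEVs (SD, n = 3). The log2 fold change was -0.52 with a standard error of 0.13 and an FDR of 0.0135 (edgeR), or 0.697-fold. Without LME-sEV replicate 3, the lowest library, it was -0.38 and the FDR was 0.122.

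Snhg5, on chromosome 9 from 88521050 to 88522929, carries the C/D snoRNAs Snord50a and Snord50b. It was at 159, 143, 135, and 136 CPM in HCME-sEV replicates 1 to 4 and at 131, 107, and 108 CPM in LME-sEV replicates 1 to 3. The conditions did not overlap, by a margin of 131 against 135 CPM. The log2 fold change was -0.31 with a standard error of 0.09 and an FDR of 0.0380 (edgeR). The call did not hold with normalization by the upper quartile (FDR 0.0552) or by library size only (FDR 0.0672). It was also lost without HCME-sEV replicate 1 (FDR 0.0808), HCME-sEV replicate 2 (FDR 0.0840), LME-sEV replicate 2 (FDR 0.200), or LME-sEV replicate 3 (FDR 0.187), with log2 fold changes from -0.31 to -0.26.

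Snhg3, Snhg1, and Snhg12 had values below 0 that did not pass the test. Snhg3, on chromosome 4 from 132348014 to 132353686, hosts a pair of H/ACA snoRNAs of the U17 family, which acts in the cleavage of the ribosomal RNA precursor. It was at 349, 288, 261, and 284 CPM with HCME-sEVs and at 264, 216, and 248 CPM with LME-sEVs, where 1 LME-sEV library (264 CPM) lay above the lowest HCME-sEV library (261 CPM). Its log2 fold change was -0.29 ± 0.09 (SE) with an FDR of 0.0660 (edgeR), and the FDR was 0.0227 without HCME-sEV replicate 3. The log2 fold change was -0.20 (FDR 0.156) without HCME-sEV replicate 1 and -0.21 (FDR 0.311) without LME-sEV replicate 2. Snhg3 shares 135 exonic bases with Rcc1 on its own strand, so its level is uncertain to the extent that counting split them. It also shares 705 of its 986 exonic bases with Gm17300 on the opposite strand. The sources used here do not say whether counting used the strand, which adds to the uncertainty of its level.

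Snhg1, on chromosome 19 from 8723475 to 8726443 (plus strand), holds 8 snoRNA genes. It was at 452, 350.3, 339, and 307 CPM with HCME-sEVs and at 323, 309, and 292 CPM with LME-sEVs. The conditions overlapped, since HCME-sEV replicate 4 lay below LME-sEV replicates 1 and 2. The log2 fold change was -0.23 ± 0.10 (SE) with an FDR of 0.172 (edgeR), and it was -0.11 without HCME-sEV replicate 1. Snhg12, on chromosome 4 from 132308623 to 132311024 (plus strand), holds 5 snoRNA gene entries, among them a second entry for Snora16a. Snhg12 lay between 81.9 and 109 CPM with HCME-sEVs and between 82.3 and 88.1 CPM with LME-sEVs. Its log2 fold change was -0.18 ± 0.10 (SE) with an FDR of 0.289 (edgeR), and it was -0.11 without HCME-sEV replicate 1.

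Gas5, on chromosome 1 from 161034422 to 161038539 (plus strand), holds 10 annotated snoRNA gene entries and was the most abundant of the 9 in every library. Snord80 is among them with a second entry. It was at 1036, 769.8, 739, and 773 CPM in HCME-sEV replicates 1 to 4 and at 957, 927, and 945 CPM in LME-sEV replicates 1 to 3. The 3 LME-sEV libraries lay above 3 of the 4 HCME-sEV libraries and below replicate 1. The log2 fold change was 0.18 ± 0.10 (SE), with a 95% interval of -0.01 to 0.38 and an FDR of 0.260 (edgeR). Without HCME-sEV replicate 1 it was 0.31 and the FDR was 0.00490, so that 1 library decided whether Gas5 passed. Gas5 made up 36.8% to 42.3% of the summed CPM of the 9 genes with HCME-sEVs and 45.2% to 45.8% with LME-sEVs. The other 8 genes together came to 1129 to 1414 CPM with HCME-sEVs and to 1125 to 1143 CPM with LME-sEVs.

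Snhg8, Snhg20, and Snhg6 did not pass the test either. Snhg8, the host of the H/ACA snoRNA Snora24, lay between 194 and 254 CPM with HCME-sEVs and between 228 and 255 CPM with LME-sEVs, with a log2 fold change of 0.12 ± 0.09 (SE) and a 95% interval of -0.06 to 0.31, and it was 0.06 without HCME-sEV replicate 4. Snhg20, which holds a small Cajal body RNA (scaRNA) gene, was the least abundant by its mean, at 19.0 to 25.0 CPM and 19.9 to 23.9 CPM, and its log2 fold change was 0.05 with an interval of -0.24 to 0.34, and 0.14 without HCME-sEV replicate 1. Snhg20 shares 110 exonic bases with Mir6516 on its own strand. Snhg8 lies on chromosome 3 from 123507552 to 123508404 and Snhg20 on chromosome 11 from 117076008 to 117078955 (plus strand).

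Snhg6, on chromosome 1 from 9941959 to 9944118, varied most between libraries of 1 condition. It was at 25.2, 82.8, 128, and 40.8 CPM in HCME-sEV replicates 1 to 4 and at 39.4, 86.7, and 94.9 CPM in LME-sEV replicates 1 to 3. The highest library was 5.06 times the lowest, both with HCME-sEVs, whereas this ratio lay between 1.31 and 2.08 for the other 8 genes. The log2 fold change was 0.13 with a 95% interval of -0.57 to 0.82, and it was -0.15 without HCME-sEV replicate 1 and 0.60 without HCME-sEV replicate 3. Snhg6 and Mcmdc2 share 127 exonic bases on opposite strands, and the sources used here do not say whether counting used the strand. Snhg6 had a Pearson r of 0.69 with Snhg8 over the 7 libraries and a median r of -0.54 with the other 8 genes. Sdhd, outside the list and among the genes most like Snhg6 (r = 0.99), also varied. It was at 11.8, 34.9, 56.4, and 22.5 CPM in HCME-sEV replicates 1 to 4, so such a spread was not confined to Snhg6.

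By their mean with HCME-sEVs, the order of the levels was Gas5 (829 CPM), Snhg1 (362 CPM), Snhg3 (295 CPM), Snhg8 (226 CPM), Snhg5 (143 CPM), Snhg12 (95.7 CPM), Snhg6 (69.1 CPM), Snhg15 (59.0 CPM), and Snhg20 (21.3 CPM). With LME-sEVs, Snhg8 (246 CPM) stood beside Snhg3 (243 CPM), and their ranges of 228 to 255 CPM and 216 to 264 CPM overlapped. With HCME-sEVs the libraries of Snhg1 and Snhg3 overlapped in level, and those of Snhg6 overlapped both Snhg12 and Snhg15, whereas the other neighbours in the order did not overlap. Across the 7 libraries, Snhg3 and Snhg5 were the most alike of the 9 (r = 0.92). All pairs among Snhg1, Snhg3, Snhg5, Snhg12, and Snhg15, the genes with log2 fold changes below 0, had r from 0.67 to 0.92. The pairs of Snhg6 or Snhg8 with these genes had r from -0.69 to -0.14. Snhg1, Snhg3, Snhg5, Snhg12, and Snhg15 were grouped by the sign of their change. Each r spans both conditions, so the difference between conditions enters it. HCME-sEV replicate 1 also enters each r, and no r was computed without it. The 5 genes outside the list most like the mean of the 9 were Zfp24, Gps1, Luc7l3, Timm22, and Slc25a46, with r between 0.97 and 0.98. Zfp24 was at 92.9 CPM in HCME-sEV replicate 1 and at 67.2 to 77.5 CPM in the other 6 libraries. These values share the libraries and their depth, and none of the 5 genes passed the test.

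The snoRNA genes inside these hosts were mostly not counted. The annotation (GENCODE vM21, GRCm38) places 30 snoRNA gene entries and 1 scaRNA gene inside the 9 hosts on their strand. Snord80 in Gas5 and Snora16a in Snhg12 each have a second entry over nearly the same bases. Entries of the same symbol share a row of counts. Of the 29 that overlap an exon of some host transcript, 28 were listed at 0 in all libraries and 1 had no row. The 2 that lie in an intron of every host transcript, Snora73b in Snhg3 and Snord87 in Snhg6, were both counted. Over all annotated snoRNA and scaRNA genes with a row, 7.06% of 170 that overlap an exon of another gene on their strand had any count, against 31.2% of 494 that lie inside a gene without such an overlap and 12.0% of 834 that lie outside genes on their strand. How reads shared by 2 genes were counted is not given in the sources used here and its part in the zeros was not tested, so a 0 does not show that a snoRNA is absent. The library kit primes at stretches of A, and mature snoRNAs carry no long poly(A) tail, so a count of a snoRNA gene is not a measure of the mature snoRNA.

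The sequences of the snoRNA genes on which the next values turn come from the same annotation. The 2 U17 genes of Snhg3 are set side by side, because their copies are near-identical. They are 205 bases long and differ at 7 positions, in capitals, 3 of which are the last 3 bases.
Snora73a, chr4:132352775-132352979, minus strand: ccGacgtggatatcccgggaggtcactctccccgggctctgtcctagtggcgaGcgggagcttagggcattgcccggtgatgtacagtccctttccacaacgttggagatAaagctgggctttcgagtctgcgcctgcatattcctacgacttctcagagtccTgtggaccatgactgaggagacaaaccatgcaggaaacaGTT
Snora73b, chr4:132352322-132352526, minus strand: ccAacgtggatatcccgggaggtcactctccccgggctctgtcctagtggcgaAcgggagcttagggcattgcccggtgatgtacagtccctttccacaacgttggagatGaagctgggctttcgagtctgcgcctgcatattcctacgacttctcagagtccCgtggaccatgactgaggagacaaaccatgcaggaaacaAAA
Snord87 has its C box (TGATGA) and D box (CTGA) in capitals, and Snora78, the H/ACA snoRNA of another host, Snhg9, has its ACA box in capitals, 3 bases from the 3′ end.
Snord87, chr1:9942463-9942549, minus strand: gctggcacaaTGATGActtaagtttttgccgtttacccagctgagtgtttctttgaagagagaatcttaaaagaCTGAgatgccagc
Snora78, chr17:24719676-24719803, minus strand: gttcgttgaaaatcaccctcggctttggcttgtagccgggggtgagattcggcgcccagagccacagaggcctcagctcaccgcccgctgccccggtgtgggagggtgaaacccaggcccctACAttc
Reads from the shared parts of Snora73a and Snora73b cannot be placed on 1 of them, so the value of Snora73b is uncertain.

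Snora73b was lower with LME-sEVs by more than its host. It was at 211, 199, 171, and 161 CPM in HCME-sEV replicates 1 to 4 and at 118, 80.0, and 88.3 CPM in LME-sEV replicates 1 to 3, with no overlap. The log2 fold change was -0.97 with a standard error of 0.12 and an FDR of 7.0e-05 (edgeR), and it lay between -1.13 and -0.86 when each library was left out. Per 100 counts of Snhg3 there were 60.5, 69.2, 65.4, and 56.8 counts of Snora73b with HCME-sEVs and 44.6, 37.0, and 35.6 with LME-sEVs. The mean log2 ratio differed by -0.69, lower in 3 of 3 LME-sEV libraries, with an exact two-sided permutation p of 0.0571 and 0.0762 after adjustment over 4 pairs. The p of 0.0571 is the smallest that 35 assignments give when the smaller tail is doubled, so the test could not pass 0.05. Of the 4 pairs, those of Snora78 and Gm23639 were added after their values were seen, so the adjusted p depends on that choice.

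Snord87 did not differ in this way. It had a log2 fold change of 0.08 with a 95% interval of -0.59 to 0.74, from 10 to 24 counts per library. Its ratio to Snhg6 was 19.0 per 100 counts in HCME-sEV replicate 1 and between 3.75 and 7.48 in the other 6 libraries, where replicate 1 was also the library with the least Snhg6.

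In 2 other noncoding hosts the snoRNA could be set beside its host. Snhg9 was at 118, 98.5, 95.7, and 87.9 CPM with HCME-sEVs and at 67.0, 69.0, and 55.3 CPM with LME-sEVs, a log2 fold change of -0.66 (FDR 9.3e-04, edgeR). Its snoRNA Snora78 had a log2 fold change of -1.58 (FDR 0.00485, edgeR). Per 100 counts of Snhg9 there were 6.94 to 12.0 counts of Snora78 with HCME-sEVs and 3.15 to 6.40 with LME-sEVs. Their log2 ratio differed by -0.92, and by -1.15 to -0.64 with a library left out. Epb41l4aos had a log2 fold change of -0.03 (FDR 0.918, edgeR), whereas the snoRNA gene inside it, Gm23639, had -1.71 (FDR 1.7e-06). There were 46.3 to 61.3 counts of Gm23639 per 100 counts of Epb41l4aos with HCME-sEVs and 13.1 to 20.9 with LME-sEVs. The permutation p was 0.0571 (exact, two-sided) for either ratio. Of the 62 tested snoRNA and scaRNA genes that lie inside a gene without overlapping an exon, 22 were lower and 0 were higher, with a median log2 fold change of -0.93. Of the 13 tested ones that lie outside genes on their strand, 4 were lower and 0 were higher, with a median of -0.44. The 1 tested one that overlaps an exon was lower too. Over all tested genes, 5.21% were lower and 3.75% were higher.

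**Figure D2:**
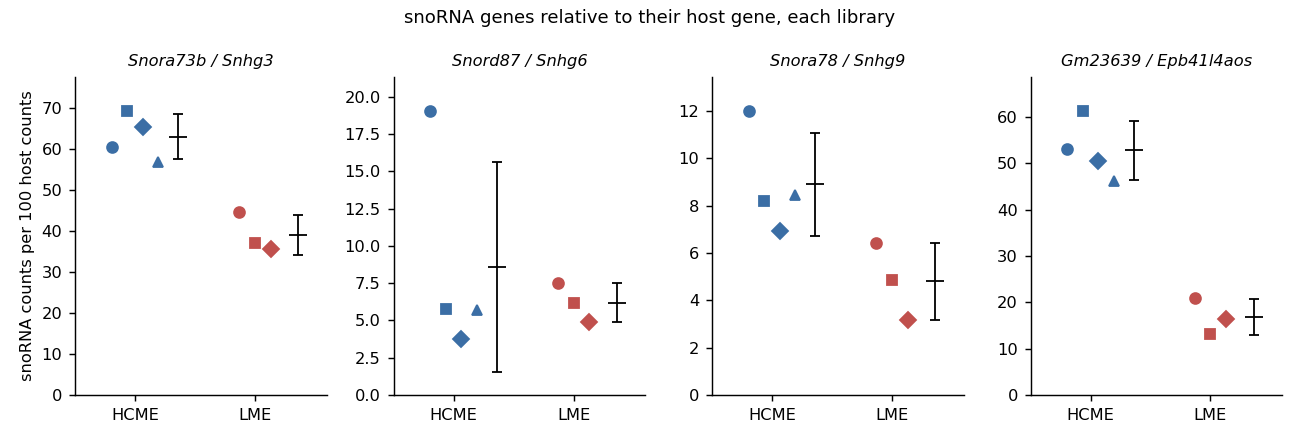
Counts of 4 snoRNA genes per 100 counts of their host gene in each library, with marker shapes for the replicate number and black bars for the mean ± SD (n = 4 HCME-sEV libraries in blue, n = 3 LME-sEV libraries in red). The LME-sEV libraries lie below all HCME-sEV libraries for Snora73b, Snora78, and Gm23639, and overlap them for Snord87.

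Of 13 other hosts fixed by name as noncoding, of which the annotation gives Snhg11 as protein-coding, 10 were tested, 1 was lower (Snhg9), and none was higher, also at an unadjusted p under 0.05 and by DESeq2 and limma-voom. Their median log2 fold change was -0.02. Zfas1, the most abundant of them, was at 256 ± 22.0 CPM with HCME-sEVs (SD, n = 4) and 273 ± 4.56 CPM with LME-sEVs (SD, n = 3), a log2 fold change of 0.09 ± 0.08 (SE), or 0.04 without HCME-sEV replicate 4. Dancr had a log2 fold change of -0.18, which lay between -0.31 (without HCME-sEV replicate 4) and -0.10 (without HCME-sEV replicate 1) with a library left out. Snhg17 had -0.19, with -0.11 without HCME-sEV replicate 1 and -0.08 without LME-sEV replicate 2. Snhg4 had -0.01 and Epb41l4aos -0.03, and both signs turned with normalization by library size only (0.03 and 0.02). Snhg16, Snhg10, Snhg14, and Rian lay at -0.31, 0.16, 0.29, and 0.53, with standard errors of 0.24 to 0.65. With a library left out, Snhg16 lay between -0.46 and -0.13 (without HCME-sEV replicate 3), Snhg10 between 0.04 (without HCME-sEV replicate 4) and 0.32 (without HCME-sEV replicate 1), Snhg14 between 0.11 (without HCME-sEV replicate 4) and 0.50 (without HCME-sEV replicate 2), and Rian between -0.16 (without LME-sEV replicate 1) and 1.66 (without HCME-sEV replicate 3). Snhg11 and Snhg18 did not reach the minimum, and Snhg7 had no row. The annotation used here has no gene under the symbols Snhg4, Snhg7, or Snhg16, so no snoRNA was placed in them. Snhg4 and Snhg16 still had counts, so the gene symbols of the counts are not all those of this annotation.

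**Figure D3:**
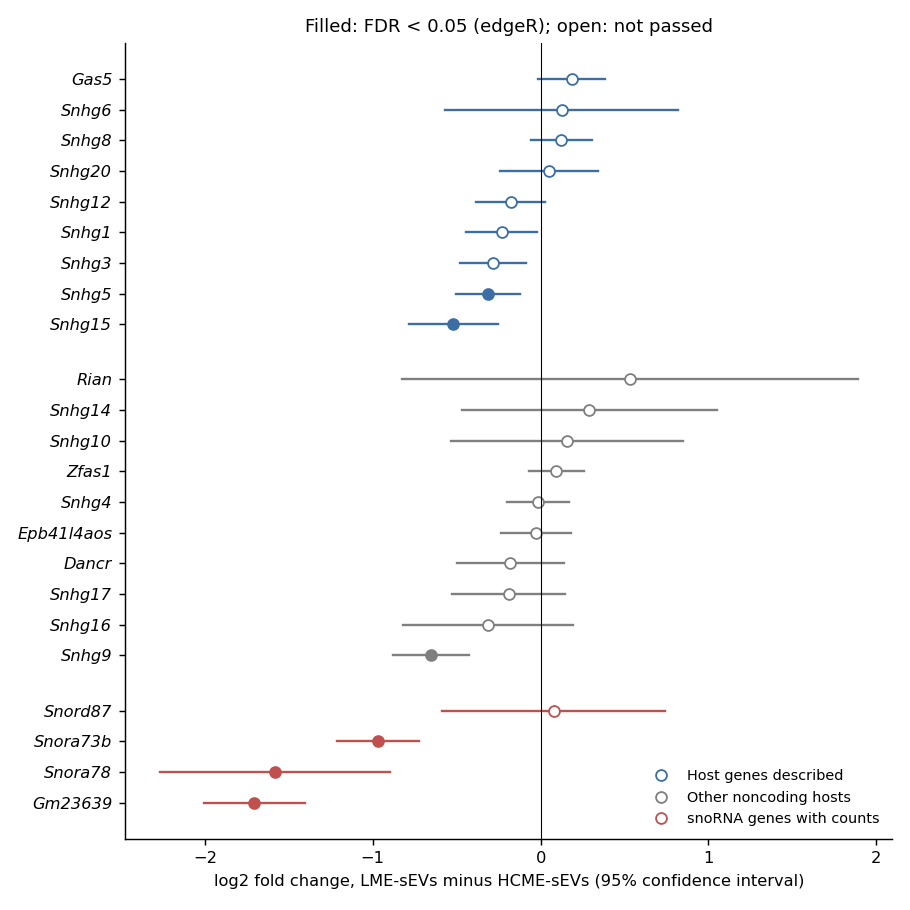
Log2 fold change with its 95% confidence interval for the 9 host genes (blue), 10 other noncoding hosts (gray), and 4 snoRNA genes (red), filled where the FDR was under 0.05. Snhg15, Snhg5, Snhg9, and 3 of the 4 snoRNA genes are filled, all below 0.

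Protein-coding hosts of snoRNAs, most of them genes of ribosomal proteins and of nucleolar proteins, divided by what they encode. Of 42 tested, 7 were lower and 1 was higher, with a median log2 fold change of 0.06. None of the 24 that encode ribosomal proteins was lower and 1 was higher (median 0.08). Of the other 18, 7 were lower and none was higher (median -0.21). The lower ones with the smallest FDR were Dkc1, the pseudouridine synthase of H/ACA particles, at -0.62 (FDR 2.6e-04), Nop58, a core protein of C/D particles, at -0.53 (FDR 0.00125), and Ncl, nucleolin, at -0.47 (FDR 0.00200, all edgeR). At an unadjusted p under 0.05, 0 ribosomal and 11 other hosts were lower, and 4 and 0 were higher. DESeq2 and limma-voom called no ribosomal host lower and no other host higher. The split by product was made after the first results were known.

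Genes of the proteins that bind or assemble snoRNAs were lower in 9 of 18 tested, with none higher and a median of -0.31. DESeq2 and limma-voom each called 7 lower and 0 higher, and at an unadjusted p under 0.05 there were 13 and 0. This list shares Dkc1, Nop58, and Nop56 with the protein-coding hosts, and Nop56 stood at -0.41 (FDR 0.00420, edgeR). Of 18 tested NMD genes, 5 were lower and none was higher, with a median of -0.12, and the counts at an unadjusted p under 0.05 were 6 and 0. DESeq2 called 4 lower and limma-voom 5, with 0 higher. The 3 with the smallest FDR were Rbm8a at -0.38, Magoh at -0.38, and Magohb at -0.32, which encode parts of the exon junction complex. Magohb lost its call when any of 5 of the 7 libraries was left out.

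TOP transcripts other than those of ribosomal proteins were lower in 0 and higher in 0 of 18 tested by edgeR, with a median of 0.07. At an unadjusted p under 0.05 there were 1 and 2, DESeq2 called 0 and 1, and normalization by library size only called 2 higher genes. The smallest FDR belonged to Eif3f (0.23, FDR 0.0665) and Fau (0.19, FDR 0.0922). Of 15 tested noncoding genes that hold no snoRNA, 3 were higher and none was lower (5 and 0 at an unadjusted p under 0.05, 2 and 0 by DESeq2), Neat1 at 0.54 (FDR 0.00308), Malat1 at 0.41 (FDR 0.00688), and Mir142hg at 0.43 (FDR 0.0414, all edgeR), the first 2 of them RNAs of nuclear bodies. Mir142hg lost its call when any of 5 libraries was left out, and Malat1 without LME-sEV replicate 3. Of 7 tested regulators of growth, 1 was lower and none was higher. Max, the partner of Myc, was lower at -0.36 (FDR 0.0127, edgeR), a call lost without LME-sEV replicate 2 or 3, and Myc itself was at -0.01, whose sign turned with 6 of the alternatives tried. Eif4ebp1 and Eif4ebp2, inhibitors of the translation factor that binds the cap, stood at -0.27 and 0.19.

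**Figure D4:**
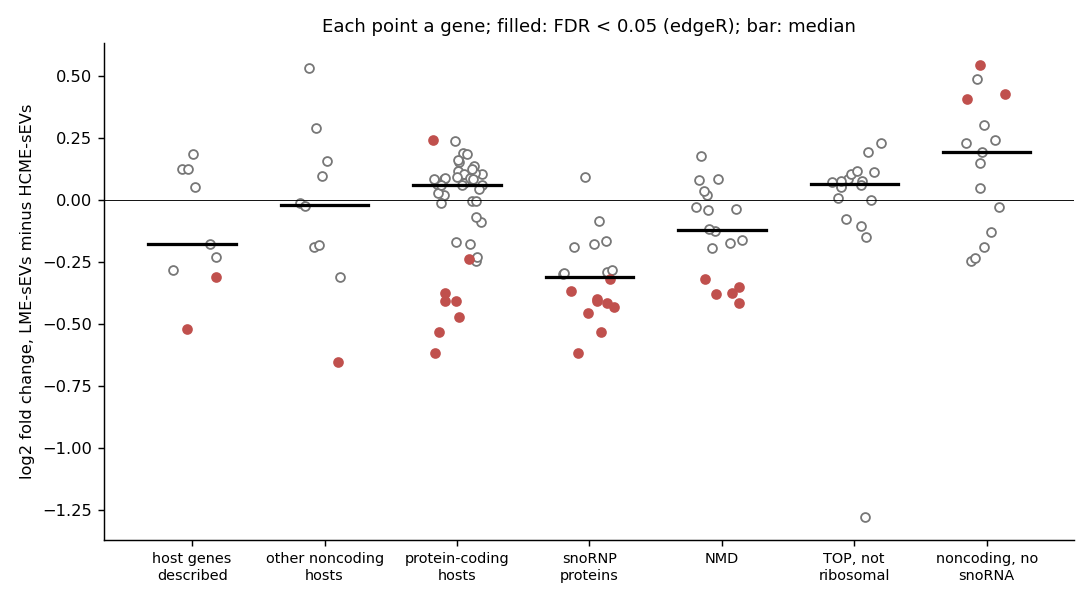
Log2 fold change of each tested gene in 7 lists, where a filled point had an FDR under 0.05 and a bar marks the median. The 9 host genes lie between -0.52 and 0.18, and the genes of snoRNA-binding proteins lie lowest, with a median of -0.31.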

How the data were processed

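RNA of sorted CD8+ T cells was made into QuantSeq 3′ libraries with molecular identifiers. Per the labels and the study's methods, the authors trimmed reads with cutadapt 2.10, mapped them to GRCm38 with STAR 2.5.3a, collapsed copies with UMI-tools 1.0.0, and assigned reads to genes with featureCounts (Subread 2.0.0). The values deposited by the authors are raw counts per gene symbol, without normalization. The annotation release, strand setting, and treatment of reads shared by genes are not given in the sources used here.

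The 12623 genes whose mean over the libraries reached 5 counts were normalized by TMM and tested with edgeR 4.0.16 (glmQLFit, glmQLFTest) in R 4.3.3, 3 LME-sEV against 4 HCME-sEV libraries without covariates, and p-values were adjusted by Benjamini-Hochberg over the 12623 genes. CPM are TMM-normalized, and correlations used log2 CPM with a prior count of 2. The smallest level that can be shown is 3 counts, 0.580 to 0.805 CPM, which covers counting error only. The fit was tested on simulated data first.

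Single ratios were tested by a two-sided exact permutation test over 35 assignments of libraries (scipy 1.17.1), with the smaller tail doubled. Taking the share of assignments with an absolute difference at least as large was tried after the first p was seen. It gives 0.0286 in place of 0.0571 and is not used for the values reported.

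Hosts, snoRNA genes, and overlaps came from GENCODE vM21 on GRCm38. Near-identical 3′ ends (blast 2.17.0, last 300 bases, 95% identity over at least 200 bases) were found for none of the 9 hosts.

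The 9 genes and all lists were chosen with earlier results of these data known. Genes named were the 9, the tested other noncoding hosts, the 3 genes of smallest FDR in each other list, the 5 genes with at least 20 counts on average that were most like the mean of the 9, snoRNA genes inside them with at least 5 counts in 1 library, Myc, and Max. Some genes that the rule names are not reported here. Snora78, Gm23639, Sdhd, and the sequence motifs were added after their values were seen. Alternatives were DESeq2 1.42.0 (size factors or test), upper quartile, library size only, no filter, filterByExpr, limma-voom 3.58.1, leaving out each library, and the replicate number as a block.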

Additional observations from a re-analysis of the deposited data

Results flagged for a closer look

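In 30 groups of 4 HCME-sEV libraries examined, the gap between an extreme library and its neighbour exceeded Dixon's 95% critical value for groups of that size in 4, where chance gives about 1 in 20. Gas5 had a gap of 0.887 of the range, with replicate 1 at 1036 CPM above the others at 739 to 773 CPM. Rian had 0.895, with replicate 3 at 4.52 CPM and the others at 0.505 to 0.928 CPM. Snord87 had 0.993, with replicate 4 at 2.32 CPM and the others near 4.8 CPM. The ratio of Snord87 to Snhg6 had 0.866, with replicate 1 at 19.0 per 100 counts.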

How the results depend on the processing

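The number of the 9 host genes that were lower (2) was 1 under the upper quartile and under scaling to library size alone. Leaving out each library in turn gave 0 to 3 lower and 0 to 1 higher, with 0 lower without LME-sEV replicate 3. Snhg5 moved to -0.29 with the upper quartile and to -0.27 with library size only, and lay between -0.40 and -0.26 with a library left out. Snhg15 lay between -0.67 and -0.38, Gas5 between 0.13 and 0.31, and Snhg3 between -0.34 and -0.20, with -0.28 and an FDR of 0.0296 for Snhg3 without a filter. Snhg6 turned sign, between -0.15 and 0.60, as did Snhg20, between -0.0010 and 0.14. Snhg1 (-0.31 to -0.11), Snhg8 (0.06 to 0.18), and Snhg12 (-0.25 to -0.11, without HCME-sEV replicate 1 the value nearest 0) kept their sign and side of the threshold when a library was left out. Over all tested genes, leaving out a library gave 223 to 761 lower genes (223 without LME-sEV replicate 2, 263 without LME-sEV replicate 3, 422 without HCME-sEV replicate 2) and 168 to 544 higher genes (168, 195, and 301 without the same libraries).

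For the lists, leaving out a library gave 4 to 7 lower and 0 to 2 higher protein-coding hosts, 5 to 10 lower snoRNA-binding proteins, 2 to 5 lower NMD genes, 1 to 3 higher noncoding genes without a snoRNA, 0 to 2 higher T cell markers, 1 to 3 higher markers of other cells, and 0 to 1 lower growth regulators. Library size only gave 3 higher protein-coding hosts, 2 lower NMD genes, and 2 higher TOP transcripts. The upper quartile gave 1 higher TOP transcript. The DESeq2 test gave 2 higher protein-coding hosts, 1 higher TOP transcript, 1 higher T cell marker, and 0 higher markers of other cells, among the genes to which it gave an adjusted p. Calls lost when a library was left out were those of Hba-a1 (6 of the 7 libraries), Magohb and Mir142hg (5 each), Cd3g (4), Mcpt8 (3), Cd3e and Max (2 each), and Malat1 (1), beside Snhg5 (4) and Snhg15 (1). The cause of these changes was not tested.

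Among the other genes named, Snhg4 turned to 0.0066 with the upper quartile and 0.032 with library size only (-0.066 to 0.043 with a library left out), Epb41l4aos to 0.021 with library size only (-0.10 to 0.076), and Myc to 0.0046 with the upper quartile, 0.028 with library size only, and 0.0905 with limma-voom (-0.26 to 0.15). Rian lay between -0.16 and 1.66, Snord87 between -0.13 and 0.27, and the log2 ratio of Snord87 to Snhg6 between -0.49 and 0.29. The ratios of Snora73b, Snora78, and Gm23639 to their hosts kept their sign with any library left out. Their p of 0.0571 is 0.0286 under the other definition of the two-sided test.

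The labels do not say whether the replicate numbers pair the libraries. The deviations of libraries with the same number correlated at 0.07, 0.16, and 0.03. Those of libraries with different numbers correlated at -0.21 to 0.08. Values this weak cannot decide whether the libraries were paired. With the replicate block, 4 of the 9 host genes were lower, Snhg1 at -0.29 (FDR 0.0106, edgeR) and Snhg3 at -0.30 (FDR 0.0124) beside Snhg5 and Snhg15, and Snhg6 was at -0.014. The block gave 860 lower and 594 higher genes in all, 1 higher TOP transcript, 1 higher growth regulator, and -0.15 for Snord87.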
